A study of Mus musculus with 16 samples.

Results

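Acetylation of lysine 27 on histone H3 (H3K27ac) was compared between mouse myeloid progenitors that expressed human WT-ERG and the same progenitors with an empty vector. The members are all 114597 merged H3K27ac regions of the deposited table, out of 348079 regions over the 5 histone marks of the series. They were split by their distance from annotated gene starts into 12327 regions within 1 kb of a start (near-start regions), 82807 regions beyond 5 kb of every start (distal regions) and 19463 regions in between, which are not described further. The cells were ER-Hoxb8 cells of C57BL/6 origin, a granulocyte-monocyte progenitor line kept immature by an estrogen-regulated Hoxb8, grown with stem cell factor and beta-estradiol. The WT-ERG group was the line stably transduced with lentiviral human ERG, and the empty-vector group was the isogenic line transduced with the vector alone, so both carried Hoxb8, the vector backbone and the GFP used for sorting. Each line gave 1 H3K27ac library, and so did the line with the P199L-ERG variant. With 1 library a side no difference was tested, so that an effect of ERG and a difference between these libraries or lines cannot be told apart.

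H3K27ac marks active promoters and active enhancers, and it is laid down by the acetyltransferases p300 and CBP and removed by histone deacetylases. Regions near gene starts are mostly promoters that many cell types share, whereas distal regions include the enhancers by which blood cells of different types are told apart. ERG belongs to the ETS factors, which bind DNA at the core GGAA. Stem cells and megakaryocytes of the blood need it, it often sits beside RUNX and GATA factors, and its overexpression is linked to leukaemia. H3K9ac is another acetylation of active chromatin, H3K4me1 and H3K4me3 mark enhancers and promoters, and H3K27me3 is the mark of Polycomb repression.

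The WT-ERG library had 16230439 reads inside the regions and the empty-vector library 15697084. The authors' normalized reads are these counts times 1 factor per library, 1.03 for WT-ERG and 1.15 for the empty vector. All ratios below are log2 ratios of normalized reads, WT-ERG over empty vector, after adding 2.18 normalized reads to each side, so that 1 means 2-fold higher in WT-ERG and -1 means 2-fold lower. A range in parentheses is the 95% interval that the read counts allow (exact binomial, Clopper-Pearson), and it covers counting error only. Scaling to total reads in the regions in place of the deposited factors would add 0.11 to every ratio, so directions of regions nearer to 0 than that are not fixed. Of the progenitor markers, Mpo, Elane, Cebpa and Cd34 had near-start regions with 3948, 1182, 1109 and 119 reads in WT-ERG cells, against 3081, 1219, 918 and 170 in empty-vector cells, and Kit, Spi1, Csf3r and Ctsg had no near-start region but distal ones. Prtn3 had none of either kind. Cd3e and Cd3g of T cells, Klf1 and Hbb-b1 of erythroid cells and Col3a1 of fibroblasts had no region, whereas Cd4, Cd8a, Pax5, Cd79a, Epor, Col1a1, Krt8 and Epcam had at least 1. Distances run from the middle of a region to the 1 start that the annotation lists per gene, so a broad promoter region or an alternative promoter can fall outside the near-start class.

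The DNA of the regions with the largest differences is shown first, since it is the substrate on which an ETS factor would act. Each line holds the 300 bases around the middle of a region on the plus strand of mm10, and capitals mark the ETS letters AGGAAG or CCGGAAG on either strand. From each class and direction the 2 most changed regions with 100 reads or more were taken whose windows lie outside annotated exons and whose nearest genes differ, and a region near Tpsab1 was added. The first pair had lower H3K27ac near a gene start. The Chst13 window (chr6:90324365-90324664, in an intron of a chondroitin sulfotransferase gene) had 0 such matches. The Fcnb window (chr2:28085126-28085425, just upstream of the ficolin B gene of myeloid precursors) had 2.
Chst13 (+670): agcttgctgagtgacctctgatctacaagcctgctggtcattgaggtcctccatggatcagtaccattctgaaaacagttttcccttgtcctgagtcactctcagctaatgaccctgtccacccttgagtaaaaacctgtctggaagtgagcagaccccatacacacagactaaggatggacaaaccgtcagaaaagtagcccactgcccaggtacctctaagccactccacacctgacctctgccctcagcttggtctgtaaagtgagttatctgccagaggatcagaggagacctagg
Fcnb (-391): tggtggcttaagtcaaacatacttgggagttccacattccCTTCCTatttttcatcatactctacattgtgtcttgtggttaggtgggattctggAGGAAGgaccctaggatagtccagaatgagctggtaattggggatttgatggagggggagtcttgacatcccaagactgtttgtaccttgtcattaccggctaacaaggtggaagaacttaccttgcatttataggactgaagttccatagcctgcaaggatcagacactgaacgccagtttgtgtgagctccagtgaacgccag

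The next pair had higher H3K27ac near a start. The window in an intron of Nlrc3, an NLR-family gene (chr16:3976013-3976312), had 0 ETS matches. That in an intron of Hrh2, the histamine H2 receptor gene (chr13:54192443-54192742), had 1.
Nlrc3 (+469): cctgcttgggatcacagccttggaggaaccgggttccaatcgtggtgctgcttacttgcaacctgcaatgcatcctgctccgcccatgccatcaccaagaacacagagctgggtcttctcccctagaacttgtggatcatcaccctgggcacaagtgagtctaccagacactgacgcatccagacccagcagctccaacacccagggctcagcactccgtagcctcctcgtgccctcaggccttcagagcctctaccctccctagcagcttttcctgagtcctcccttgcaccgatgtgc
Hrh2 (+463): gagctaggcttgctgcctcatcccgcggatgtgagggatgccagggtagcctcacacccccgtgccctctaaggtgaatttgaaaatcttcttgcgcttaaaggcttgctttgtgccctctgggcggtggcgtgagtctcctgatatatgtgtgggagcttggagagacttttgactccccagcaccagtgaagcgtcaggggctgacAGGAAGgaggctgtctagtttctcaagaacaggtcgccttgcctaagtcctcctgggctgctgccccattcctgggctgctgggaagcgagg

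The distal pair with lower H3K27ac lay in an intron of Rgs6, a regulator of G-protein signalling (chr12:82751833-82752132), with 1 match, and in the intergenic DNA past Tmem170b, a membrane protein gene (chr13:41662476-41662775), with 3 matches.
Rgs6 (+135037): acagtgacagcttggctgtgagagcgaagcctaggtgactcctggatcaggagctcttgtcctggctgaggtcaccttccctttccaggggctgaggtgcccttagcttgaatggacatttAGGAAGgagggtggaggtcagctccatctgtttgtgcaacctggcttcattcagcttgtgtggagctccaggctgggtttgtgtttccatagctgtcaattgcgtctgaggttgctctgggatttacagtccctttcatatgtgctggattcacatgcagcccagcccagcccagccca
Tmem170b (+56410): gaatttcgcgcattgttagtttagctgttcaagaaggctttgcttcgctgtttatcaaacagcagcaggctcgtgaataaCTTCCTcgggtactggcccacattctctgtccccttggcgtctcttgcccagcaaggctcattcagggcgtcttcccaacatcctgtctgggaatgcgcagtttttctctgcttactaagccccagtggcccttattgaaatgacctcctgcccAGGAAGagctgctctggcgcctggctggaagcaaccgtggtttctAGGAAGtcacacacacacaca

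The distal regions with higher H3K27ac were all intergenic. They lay upstream of Runx1, a core factor of blood stem cells (chr16:93154013-93154312, 0 matches), between Tha1 and Socs3 (chr11:117909649-117909948, 1 match) and beside Tpsab1, a tryptase gene of mast cells (chr17:25333798-25334097, 0 matches).
Runx1 (-328014): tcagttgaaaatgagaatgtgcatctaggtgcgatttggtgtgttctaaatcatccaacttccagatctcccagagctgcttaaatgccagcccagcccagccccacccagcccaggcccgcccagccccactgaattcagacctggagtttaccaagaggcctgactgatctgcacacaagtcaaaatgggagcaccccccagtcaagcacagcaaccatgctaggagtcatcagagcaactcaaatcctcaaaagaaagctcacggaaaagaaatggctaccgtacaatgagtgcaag
Tha1 (-36340): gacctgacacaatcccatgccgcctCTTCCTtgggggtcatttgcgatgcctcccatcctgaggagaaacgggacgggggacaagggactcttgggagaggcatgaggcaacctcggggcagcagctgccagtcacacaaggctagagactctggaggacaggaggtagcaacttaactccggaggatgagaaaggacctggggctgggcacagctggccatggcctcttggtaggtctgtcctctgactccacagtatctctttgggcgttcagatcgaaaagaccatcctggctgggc
Tpsab1 (+11579): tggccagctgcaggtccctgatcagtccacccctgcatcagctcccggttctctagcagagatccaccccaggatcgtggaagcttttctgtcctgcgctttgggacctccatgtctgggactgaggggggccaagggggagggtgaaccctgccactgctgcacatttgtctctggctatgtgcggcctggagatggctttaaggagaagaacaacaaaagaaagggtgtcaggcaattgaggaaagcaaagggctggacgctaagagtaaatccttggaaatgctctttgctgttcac

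The ETS letters were thus present in some of these windows in both directions. How often they occurred in all changed regions is given below.

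Most near-start regions kept most of their H3K27ac in WT-ERG cells, with a small shift downwards, while distal regions moved in both directions around 0. Summed over all near-start regions, the log2 ratio of normalized reads was -0.20, and over all distal regions -0.01. The median log2 ratio was -0.16 over near-start regions and 0.01 over distal regions. Of all near-start regions 1074 (8.71%) were lower and 840 (6.81%) higher by 1.5-fold, and of all distal regions 14675 (17.7%) were lower and 16015 (19.3%) higher. These counts are full of regions with few reads, since the median distal region had 19 reads in WT-ERG cells and 17 in empty-vector cells, against 400 and 386 for near-start regions.

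With 100 reads or more in the larger library, 8459 near-start and 10575 distal regions remained. Of these near-start regions 311 (3.68%) were lower and 153 (1.81%) higher, with a median of -0.18. Of these distal regions 792 (7.49%) were lower and 969 (9.16%) higher, with a median of -0.02. The counting interval of every one of these changed regions lay wholly on its side of 0. A 1.5-fold ratio with 100 reads or more already implies this, so it adds nothing to the calls. At 500 reads or more the share past 1.5-fold was 2.75% lower and 0.563% higher near starts, against 2.67% lower and 4.71% higher at distal regions. Scaled to total reads, the near-start split turned round to 120 lower and 218 higher while the distal one became 500 lower and 1358 higher. Centred within groups of similar GC content, near-start regions had 1039 lower and 103 higher and distal regions 613 lower and 888 higher. These groups pooled all 114597 regions, 82807 of them distal, so the centred near-start values also carry the distal GC trend given below. Over all regions the near-start median lay below the distal one in these 3 versions. Of the 2 splits, only the distal excess of higher over lower regions kept its direction in all 3. With 100 reads or more, 25 near-start regions were lower and 43 higher by 2-fold, the reverse of the order at 1.5-fold. The distal counts at 2-fold were 133 lower and 256 higher.

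**Figure D1:**
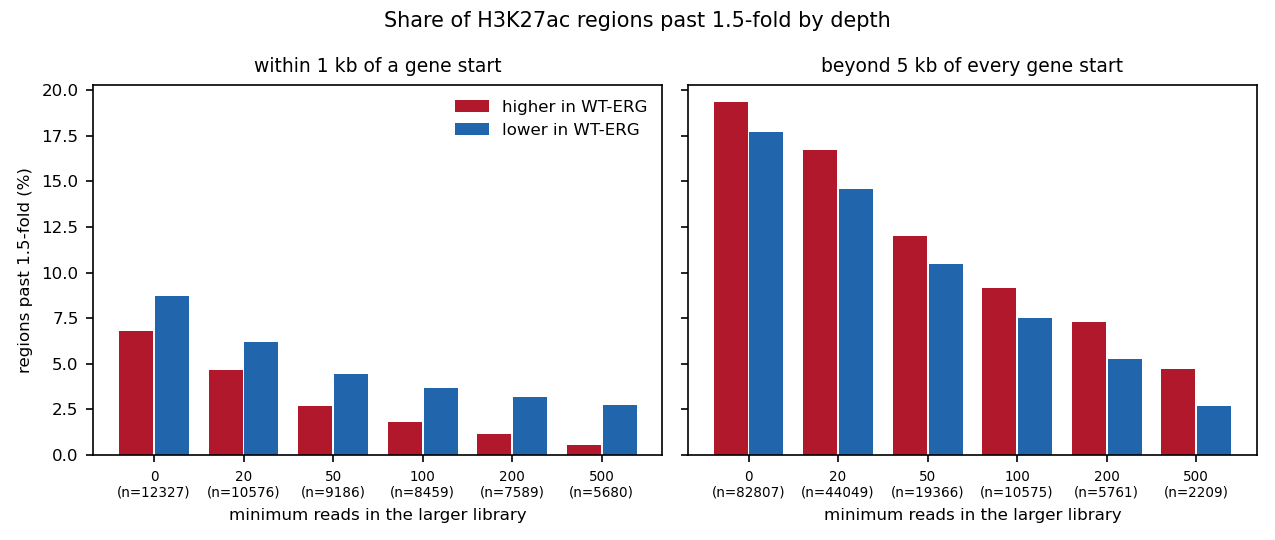
Share of regions past 1.5-fold (y axis, percent) at increasing minimum reads in the larger library (x axis, with the number of regions n), for near-start regions (left) and distal regions (right), higher in WT-ERG in red and lower in blue. At 1.5-fold, lower regions outnumber higher ones near starts and the reverse holds at distal regions at each minimum. At 100 reads the shares lower and higher are 3.68% and 1.81% near starts and 7.49% and 9.16% at distal regions.

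Peak calls were shared by both libraries more often near starts than at distal regions. Both libraries had a call at 10266 near-start regions (83.3%), WT-ERG alone at 790 (6.41%) and the empty vector alone at 479 (3.89%), the opposite order to the lower and higher regions there. At distal regions both had a call at 37847 (45.7%), WT-ERG alone at 16785 (20.3%) and the empty vector alone at 10193 (12.3%). Regions called in WT-ERG alone held a median of 17 reads in the larger library and those called in the empty vector alone 16, so calls in 1 library alone were mostly of weak regions.

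Base composition moved with the ratio at distal regions. In 10 equal groups of distal regions ordered by GC content, the group with a median GC of 43.8% had a median ratio of -0.29, that with 55.3% had 0.21 and that with 58.9% had 0.18. The lowest group had 193 lower and 13 higher regions, and the highest had 35 lower and 206 higher. Near starts the medians stayed between -0.25 and -0.15, but the counts differed between groups. The lowest GC group near starts had 74 lower and 5 higher regions, and the highest had 74 lower and 30 higher. The groups between them had 14 to 33 lower regions. H3K9ac over the same distal regions had medians of 0.06 in the lowest and -0.18 in the highest group. The part of GC content in the H3K27ac counts was measured only through the GC-centred values given here. Those values rest on groups pooled over all classes, so near-start shifts under centring include a trend that the near-start medians did not follow.

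**Figure D2:**
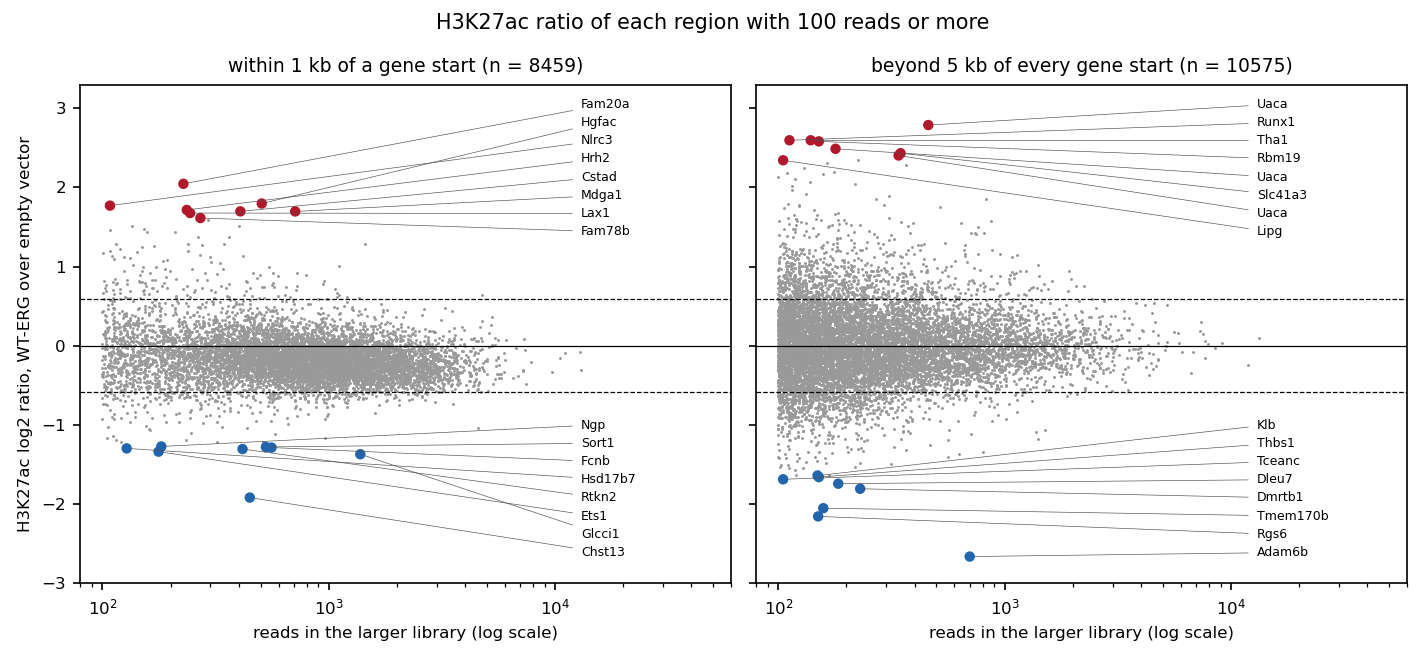
Log2 ratio of H3K27ac, WT-ERG over empty vector (y axis), against the reads in the larger library (x axis, log scale), for 8459 near-start regions (left) and 10575 distal regions (right). Grey points are regions, coloured points with gene names are the 8 largest differences each way (red higher, blue lower in WT-ERG), and dashed lines mark 1.5-fold. The named decreases reach -1.92 at Chst13 near starts and -2.66 at the distal region nearest to Adam6b, and the increases reach 2.05 at Fam20a and 2.79 at Uaca.

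Near gene starts, the 8 largest decreases included the granule genes Fcnb and Ngp and the ETS gene Ets1. Chst13 had 131 reads in WT-ERG cells against 448 in empty-vector cells in its intronic region, a ratio of -1.92 (-2.23 to -1.65). Glcci1, a glucocorticoid-induced gene, had 595 against 1379 reads (-1.37, -1.51 to -1.23). Ets1, which encodes an ETS factor related to ERG, had 77 against 177 reads (-1.34, -1.77 to -0.97) in a region 27 bases from its start. All 8 regions were called as peaks in both libraries.

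Fcnb, whose product is a secreted lectin, had 255 reads in WT-ERG cells against 559 in empty-vector cells (-1.28, -1.51 to -1.08). Ngp, which encodes neutrophilic granule protein, had 83 against 182 (-1.27, -1.68 to -0.91). Sort1, the gene of the sorting receptor sortilin, had 242 against 528 reads (-1.28). Rtkn2 (-1.30) and Hsd17b7 (-1.30), a gene of sterol synthesis, complete the 8. H3K9ac was lower at all 8 as well, with log2 ratios from -1.47 at Ngp to -0.29 at Hsd17b7. It was below 0 at 88.9% of all near-start regions where it could be read, with a median of -0.24, so its sign alone does not set these 8 apart.

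The largest near-start increases were weaker regions in empty-vector cells. Fam20a, a gene of a secretory-pathway pseudokinase, had 228 reads in WT-ERG cells against 48 in empty-vector cells, a ratio of 2.05 (1.63 to 2.57), and its region was called in WT-ERG but not in the empty vector. Hgfac, the protease that activates hepatocyte growth factor, had 506 against 129 reads (1.80, 1.53 to 2.10). Hrh2, through which histamine acts on leukocytes, had 236 against 63 reads (1.72, 1.34 to 2.17). All 3 had higher H3K9ac in WT-ERG cells, by 1.01, 1.08 and 1.30.

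Nlrc3 (1.77), Cstad (1.70), Mdga1 (1.70), Lax1 (1.68) and Fam78b (1.61) followed. Lax1 encodes a signalling adaptor of lymphocytes and Mdga1 a membrane-anchored adhesion protein. H3K4me3 was higher at all 8 regions, from 0.32 at Cstad to 3.37 at Nlrc3, and H3K27me3 could be read at Mdga1 and Fam78b only, where it was lower at -1.16 and -1.17. Summed over the near-start regions of a gene, Shank3 (1.48), a synaptic scaffold gene, and Slc39a4 (1.32), a zinc transporter gene, also stood among the 5 highest.

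At distal regions, the largest decrease of all lay in the immunoglobulin heavy chain locus. The region chr12:113423956-113425544, whose nearest listed gene is Adam6b, had 122 reads in WT-ERG cells against 701 in empty-vector cells, a ratio of -2.66 (-2.97 to -2.40). In the reference annotation it lies between Ighm, the mu constant gene, and Ighj4, a joining segment. That stretch is known to hold the intronic heavy chain enhancer and the mu switch region. H3K9ac and H3K4me3 were lower there by 2.31 and 2.59 on the log2 scale, and the P199L-ERG library had 79 reads of H3K27ac. Whether the locus is rearranged in either line was not tested.

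The other 7 largest distal decreases had fewer reads. Rgs6 (+135037, the distance in bases from the gene start) had 36 reads in WT-ERG cells against 150 in empty-vector cells (-2.15, -2.79 to -1.69). Tmem170b (+56410) had 41 against 158 (-2.05, -2.64 to -1.60). Dmrtb1 (-1.81), Dleu7 (-1.74), Tceanc (-1.69), Thbs1 (-1.66) and Klb (-1.64) followed, with 105 to 230 reads in empty-vector cells. Thbs1 encodes thrombospondin and Klb beta-klotho, a co-receptor of fibroblast growth factors. The Tceanc region lay 464 bases from another transcript start of that gene.

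Of the 8 largest distal increases, 3 lay in 1 stretch between Uaca, which encodes a regulator of cell death, and Tle3, a Groucho co-repressor gene. The genes that hold regions of this stretch in the annotation are the long noncoding RNA genes Gm33699, Gm33914, Gm39348 and Gm5122. The region at +262235 had 460 reads in WT-ERG cells against 58 in empty-vector cells, a ratio of 2.79 (2.43 to 3.25). Those at +228099 and +247792 had 179 against 27 (2.49) and 340 against 56 (2.40). H3K9ac was higher at these 3 by 2.36, 1.62 and 1.83. The P199L-ERG library had 303, 126 and 202 reads there.

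The Runx1 region at -328014 had 112 reads in WT-ERG cells against 15 in empty-vector cells (2.60, 1.96 to 3.63). The region between Tha1 and Socs3 had 139 against 19 (2.60, 2.01 to 3.49). Socs3 encodes the feedback inhibitor of cytokine receptors such as the receptor of G-CSF. In introns of Rbm19, a ribosome assembly gene, and Slc41a3, a magnesium transporter gene, the counts were 151 against 21 (2.58) and 347 against 56 (2.43), the Slc41a3 region lying 410 bases from a Slc41a3 transcript start. Last came Lipg (+58774), the endothelial lipase gene, with 105 against 17 reads (2.34). Of these 8, 2 were called in both libraries, and 6 in WT-ERG but not in the empty vector.

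Some changed regions lay side by side, although most lay outside the runs counted here. Runs of 4 or more consecutive regions with 20 reads or more that moved in 1 direction by 1.5-fold were listed, a description chosen after the values had been seen. Of the 64862 regions with 20 reads or more, 8386 (12.9%) were lower and 9410 (14.5%) higher. There were 204 lower runs with 1049 regions and 260 higher runs with 1488 regions. H3K9ac, measured from a separate immunoprecipitation, had a median below 0 in 85 of 91 lower runs and above 0 in 110 of 111 higher runs in which it could be read at 3 regions or more. Most runs were distal, with 55 near-start regions in the lower and 81 in the higher runs.

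The longest higher run was that of Uaca and Tle3, with 19 regions over 273 kb. Together they held 2274 reads in WT-ERG cells against 492 in empty-vector cells (2.04, 1.91 to 2.19). All 19 were called in WT-ERG and 5 in the empty vector, and H3K9ac was above 0 at 10 of 10 regions with a median of 1.68. Between Tha1 and Socs3, 16 regions over 39.7 kb held 2834 against 666 reads (1.93, 1.81 to 2.05), with H3K9ac above 0 at 7 of 7. Lipg (16 regions, 2.29) and Pmepa1 (16 regions, 1.05), a brake on TGF-beta signalling, were of the same length, as was Cdk18 (16 regions, 0.91). Smad7, another such brake, had 2 runs of 9 regions each (0.87 and 0.80).

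Blood genes stood among the higher runs too. Between Rpn1 and Gata2, 13 regions over 61.4 kb held 4036 reads in WT-ERG cells against 1778 in empty-vector cells (1.02, 0.94 to 1.10), with H3K9ac above 0 at 7 of 7 regions. Far upstream of Runx1, 11 regions held 1036 against 368 reads (1.33, 1.16 to 1.51). Between Cox4i1 and Irf8, a factor of monocytes and dendritic cells, 10 regions held 879 against 371 reads (1.08, 0.91 to 1.26). Runx3, a relative of Runx1, had 11 regions with 2540 against 1323 reads (0.78, 0.68 to 0.88). At Prss34, Prss29 and Tpsab1, a cluster of proteases of basophils and mast cells, 8 regions held 698 against 207 reads (1.59, 1.37 to 1.82), and at Hrh2 9 regions held 1026 against 439 (1.06, 0.90 to 1.23).

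Fcnb led the lower runs. From Fcnb to Olfm1, 14 regions over 128 kb held 1759 reads in WT-ERG cells against 3598 in empty-vector cells (-1.19, -1.28 to -1.11), and H3K9ac was below 0 at 7 of 7. The run of Mogat2, an acylglycerol transferase gene, and Map6, a microtubule protein gene, had 13 regions with 1598 against 3061 reads (-1.10, -1.19 to -1.01). Rcbtb2 (13 regions, -0.98), Wdfy2 (13 regions, -1.11), Mreg (12 regions, -1.16) and Sc5d (12 regions, -1.23), an enzyme of cholesterol synthesis, followed. Sort1 had 9 regions (-1.18), Chd7, a chromatin remodeller, 8 regions with 2654 against 4867 reads (-1.03), and Ngp 8 regions (-1.14).

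**Figure D3:**
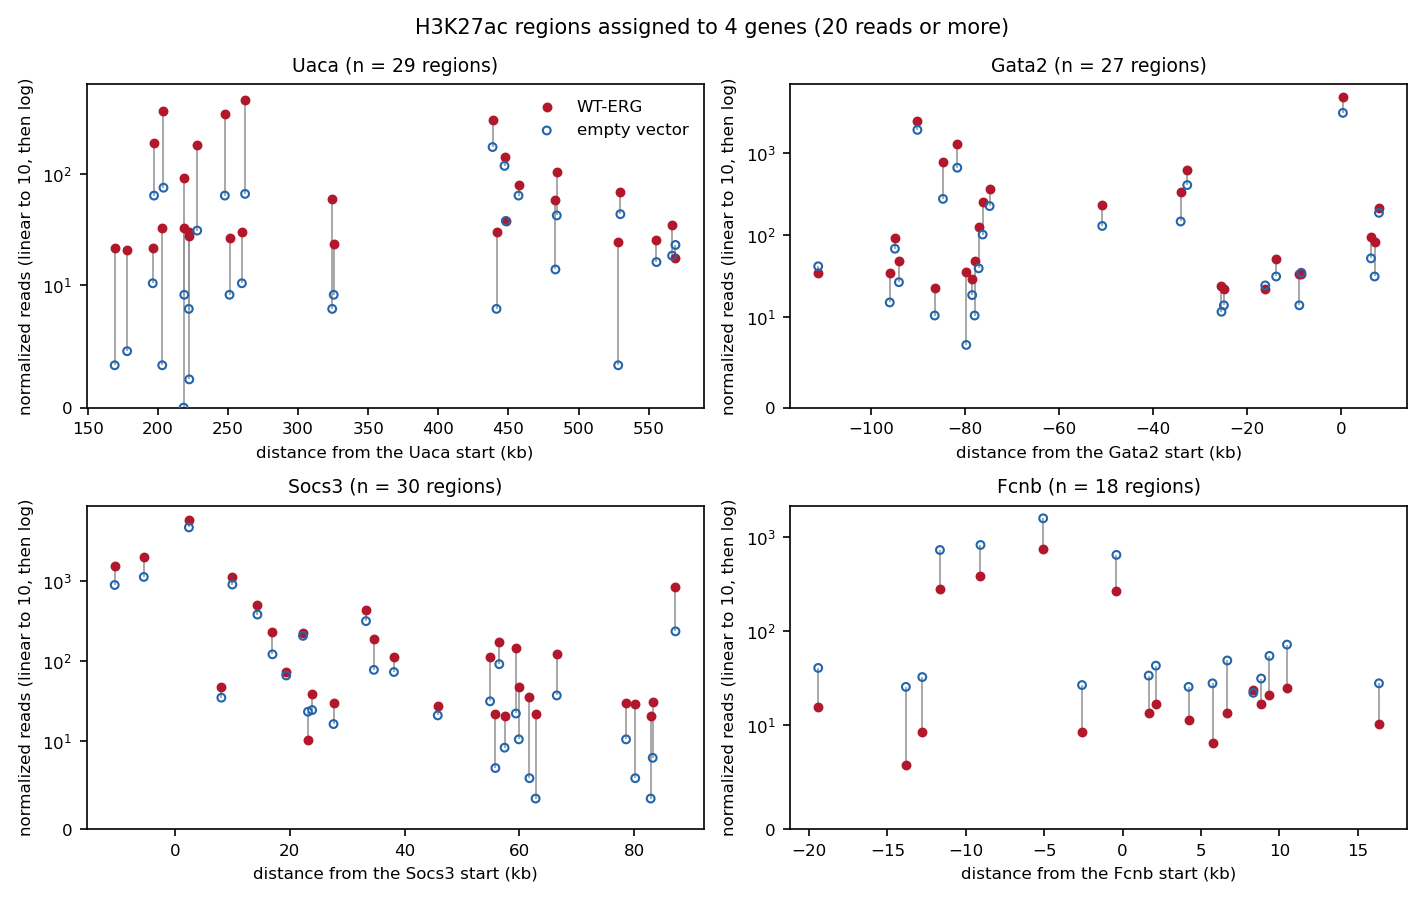
Normalized reads (y axis, linear up to 10 and logarithmic above) of H3K27ac regions with 20 reads or more against the distance from the gene start in kb (x axis), for WT-ERG (filled red) and empty vector (open blue), joined by grey lines. Of the regions assigned to Uaca 25 of 29 were higher in WT-ERG by 1.5-fold, to Gata2 20 of 27 and to Socs3 21 of 30, while 17 of the 20 regions of Fcnb were lower. Of these 20, the 18 within 20 kb are drawn. Among all regions with 20 reads or more, 14.5% were higher and 12.9% lower.

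Gata2, which encodes a zinc-finger factor of stem cells and mast cells, was higher both upstream and at its start. Its near-start region had 4734 reads in WT-ERG cells against 2704 in empty-vector cells (0.65, 0.58 to 0.72), or 0.44 after GC centring. Its 41 distal regions together held 7329 against 4013 reads (0.71, 0.65 to 0.77), 23 of them higher and 1 lower. Of all distal regions, 19.3% were higher and 17.7% lower. The region 84.7 kb upstream had 760 against 240 reads (1.29 to 1.72), that at 77.1 kb upstream 120 against 34 (1.61) and that at 81.6 kb upstream 1248 against 577 (0.95). The far upstream DNA of mouse Gata2 is known to hold a haematopoietic enhancer. The strongest upstream region, at 90.1 kb, moved less, with 2414 against 1675 reads (0.37).

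Irf8 was also higher at most of its regions, with 2696 reads in WT-ERG cells against 1443 in empty-vector cells over 33 distal regions (0.74, 0.65 to 0.84), 22 of them higher and 0 lower. H3K9ac at its regions had a median of 0.24. Itga2b, the platelet integrin gene CD41, had 264 against 90 reads at its start (1.37, 1.04 to 1.75), with H3K9ac higher by 1.33. Cxcr2 and Csf3r, receptors of neutrophils, had distal ratios of 0.61 (13 of 23 regions higher, 1 lower) and 0.52 (3 of 11 higher, 1 lower). Among all distal regions 19.3% were higher and 17.7% lower, and the count of Csf3r is too small to set against these shares.

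Some other genes of the lineage were lower. Camp, which encodes the secondary granule peptide cathelicidin, had 232 reads in WT-ERG cells against 401 in empty-vector cells over 9 distal regions (-0.94, -1.19 to -0.71), 6 of them lower, while its 2 near-start regions summed to a ratio of -0.33. Ly6c2, a surface antigen of monocytes, was at -0.63 distally (9 of 20 lower, 0 higher) and -0.55 near its start. The shares over all distal regions were 17.7% lower and 19.3% higher. Clec12a, an inhibitory lectin receptor of myeloid cells, was at -0.44 distally and -0.68 near its start. After GC centring the distal ratio of Clec12a was -0.26. The remaining genes were mixed. Csf1r and Itgam had distal sums of 0.29 and 0.23, with -0.11 and -0.25 near their starts. Ltf had a distal sum of -0.35 and 0.54 near its start, the latter from only 48 against 29 reads.

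The mouse Erg and Fli1 genes, which encode the endogenous protein and its closest relative, had distal sums below 0, that of Erg by little. Fli1 had 5399 reads in WT-ERG cells against 6300 in empty-vector cells over 69 distal regions (-0.38, -0.44 to -0.33), with 33 lower and 5 higher. Erg had 11114 against 11495 over 96 distal regions (-0.21, -0.25 to -0.17), with 23 lower and 11 higher. Over all distal regions 17.7% were lower and 19.3% higher. Most of these counts come from weak regions. With 100 reads or more, 1 of 22 distal regions of Erg and 3 of 9 of Fli1 were lower, and 0 of either were higher. The shares of all distal regions of that depth were 7.49% lower and 9.16% higher. With total-read scaling the ratios of Fli1 and Erg were -0.27 and -0.10, and after GC centring -0.30 and -0.12. H3K9ac went the other way at Erg, above 0 at 26 of 36 regions (median 0.21), and was below 0 at 14 of 23 regions of Fli1 (median -0.08). Among genes of the progenitor state, Cd34 had 119 reads in WT-ERG cells against 170 in empty-vector cells at its start (-0.66, -1.02 to -0.33, and -0.94 after GC centring) and a distal sum of -0.17. Mpo, Kit, Cebpa, Cebpe, Spi1 and Runx1 had distal sums between -0.05 and 0.13, although 44 of the 141 distal regions of Runx1 were higher and 13 lower.

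Most genes with changed distal regions had a start within 1.5-fold, but changed starts were more frequent among them than among all genes. Of 4781 genes with 100 reads or more in both kinds of regions, 163 (3.41%) were lower and 110 (2.30%) higher near the start. Distally 206 (4.31%) were lower, and of these 36 (17.5%) were lower near the start as well, 170 lay within 1.5-fold and 0 were higher. Of 197 genes (4.12%) higher distally, 22 (11.2%) were higher near the start, 173 lay within 1.5-fold and 2 were lower. The median near-start ratio was -0.30 in genes lower distally and -0.09 in genes higher distally, beside -0.19 over all 4781. Some genes share regions in these sums, since a region can be assigned to both of its neighbours. Lipg and Acaa2 share 21 distal regions, all of them higher, with 748 reads in WT-ERG cells against 129 in empty-vector cells (2.36, 2.10 to 2.66). The start of Acaa2, a gene of fatty acid oxidation, had 1132 against 876 reads (0.21). Klb and Rpl9 share 8 distal regions, all of them lower, with 300 against 807 reads (-1.58, -1.78 to -1.39), while the start of Rpl9, a ribosomal protein gene, had 1124 against 1105 (-0.13). Single distal regions were lower in 17.7% and higher in 19.3% of all cases.

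The other genes with the largest distal sums were of both kinds. Higher were Ephb2, an ephrin receptor gene (719 reads in WT-ERG cells against 180 in empty-vector cells over 14 regions, 1.83), Lactbl1 (1.81), Uaca (3062 against 923 over 47 regions, 1.57), Gm10134 (1.45), Lhx5 (1.40) and Tcte1 (1.38). Lower were Adam6b (155 against 760 over 5 regions, -2.44) and Tmem121 (192 against 781 over 7 regions, -2.17), both through the heavy chain locus region, and BC048671 and Chst13, which share 6 regions (314 against 691, -1.29). Rbm28, a gene of ribosome assembly, had 260 against 556 reads over 17 regions (-1.25), with 16 of them lower and a start at -0.11. Fcnb had 1575 against 3204 reads over 25 regions (-1.18), with 21 of them lower, 1 higher and a start at -1.28. Of all distal regions, 17.7% were lower and 19.3% higher.

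Grouped by function, the list with the largest share of higher distal regions was that of mast cell and basophil genes, and most of these regions were those of Gata2. Of 29 regions with 100 reads or more, 14 were higher and 0 lower in WT-ERG cells, with a median of 0.45, and the counts were the same after GC centring. Over all distal regions of that depth 9.16% were higher and 7.49% lower. These 29 regions belong to 7 of the 18 genes listed. Gata2 holds 10 of them and 8 of the 14 higher ones, and Kit, the stem cell factor receptor, 9 of them and 2 of the higher ones. Without Gata2, a count made after its values were seen, 6 of 19 were higher (median 0.26), and without Gata2 and Kit 4 of 10. The strongest was that of Tpsab1 (+11579), with 224 reads in WT-ERG cells against 38 in empty-vector cells (2.34, 1.90 to 2.94), and all 4 regions of Tpsab1 with 20 reads or more were higher. The region at -46271 from Cyp11a1, a gene of steroid synthesis, lies nearer to Sema7a and had 138 against 28 reads (2.07, 1.55 to 2.78). Hdc, which makes histamine, moved little, with 257 against 194 reads at 20.9 kb and 207 against 179 at its start.

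The stem cell heptad, the set of ERG, FLI1, GATA2, RUNX1, TAL1, LYL1 and LMO2 that bind together in stem cells, had 16 higher (22.2%) and 5 lower (6.94%) of 72 distal regions, with a median of 0.09, against 9.16% and 7.49% of all. The same 8 Gata2 regions as in the mast cell list are among the 16, and Runx1 adds 7. Without Gata2 the list had 8 higher (12.9%) and 5 lower (8.06%) of 62, and its median was 0.00256. Its extremes were Runx1 (2.60 at -328014 and 1.89 at -326994) on the high side, and Fli1 (+13523, -0.97) and a region in an intron of Erg (-0.86) on the low side. Cytokine signalling brakes and kinases had 15 higher (18.8%) and 2 lower (2.50%) of 80 (median 0.12), of which Socs3 alone held 10 of the 15, led by the regions of Socs3 at +59387 (2.60) and +87175 (1.86), the farther one with 830 reads in WT-ERG cells against 204 in empty-vector cells. The median of all distal regions was -0.02.

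Megakaryocyte genes leaned the other way at distal regions. Of 23 regions 6 were lower and 1 higher, with a median of -0.36 (-0.24 after GC centring). Among all distal regions with 100 reads or more, 7.49% were lower and 9.16% higher. Thbs1 alone held 11 of these regions and 4 of the lower ones. The region of Thbs1 at -99451 had 75 reads in WT-ERG cells against 160 in empty-vector cells (-1.23), and the region of Itgb3, which pairs with Itga2b in platelets, 146 against 70 (0.88). Near starts 2 of 4 were higher, Itga2b among them, and 1 of 4 after GC centring. Of all near-start regions with 100 reads or more, 1.81% were higher.

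Neutrophil and monocyte lists were mixed. Late neutrophil genes had 6 lower (14%) and 5 higher (11.6%) of 43 distal regions (median 0.15). Camp (-11252) with 52 reads in WT-ERG cells against 132 in empty-vector cells (-1.47) and Fcnb (-11650) with 271 against 630 (-1.37) were lowest, and Cd177, a neutrophil surface protein gene (106 against 39, 1.24), was highest. Monocyte and macrophage genes had 12 lower (16.9%) and 9 higher (12.7%) of 71 (median -0.14), with 6 of the 9 at Irf8, from Klf4 (-90669, -1.37), a factor of monocyte identity, and F13a1 (+60226, -1.11) to Irf8 (1.02). Primary granule genes had 1 lower and 0 higher of 23. The shares over all distal regions with 100 reads or more were 7.49% lower and 9.16% higher.

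Stem and progenitor genes had 11 lower (8.09%) and 8 higher (5.88%) of 136, beside 7.49% and 9.16% of all distal regions, from Cdk6 (+45656) at -1.13 to Mn1 (+92411), a leukaemia co-regulator gene with 807 reads in WT-ERG cells against 268 in empty-vector cells (1.42, 1.23 to 1.64). ETS factor genes had 10 lower (7.75%) and 4 higher (3.10%) of 129, with Ets2 (+6454) at -1.01 and a region assigned to both Etv6 and the nearer Bcl2l14 at 1.22. B lymphoid genes had 0 of 10 distal regions past 1.5-fold, though the region at the start of Bcl11a had 599 reads in WT-ERG cells against 289 in empty-vector cells (0.89). Immediate early genes had 6 lower and 7 higher of 79 (7.59% and 8.86%) and cell cycle genes 5 lower and 6 higher of 75 (6.67% and 8%), near the shares of all distal regions. Ribosomal protein genes had 1 lower and 4 higher of 35, NCoR-HDAC3 complex genes 0 lower and 1 higher of 20, erythroid genes 1 lower and 2 higher of 10 and interferon response genes 1 lower and 1 higher of 8, numbers too small to set against those shares.

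**Figure D4:**
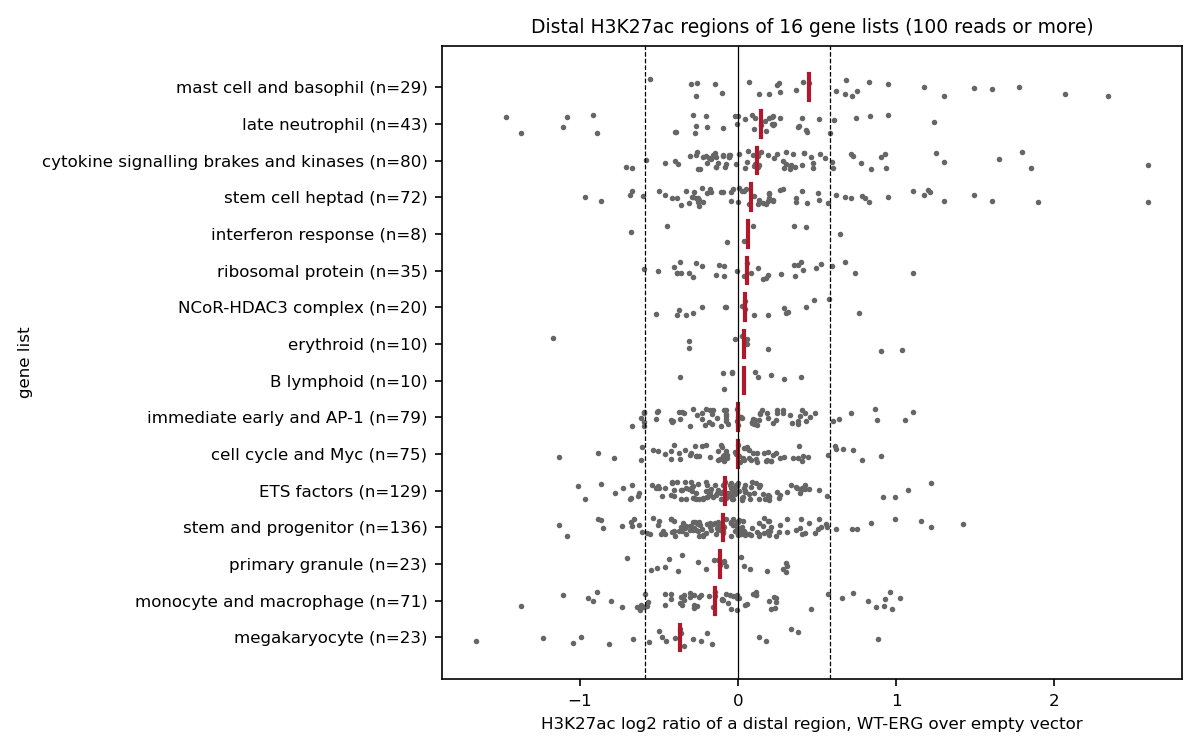
Log2 ratio of H3K27ac, WT-ERG over empty vector (x axis), of each distal region with 100 reads or more assigned to the genes of 16 lists (y axis, n regions). Grey points are regions with vertical jitter, red bars are medians and dashed lines mark 1.5-fold. The mast cell and basophil list has the highest median (0.45) and the megakaryocyte list the lowest (-0.36).

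The other marks in the same cells were read over the changed regions. At distal regions with lower H3K27ac, H3K9ac was lower by 1.5-fold at 126 and higher at 3 of the 527 regions where it had 50 reads or more, with a median of -0.31. Over all such distal regions 3.10% were lower and 5.43% higher. At distal regions with higher H3K27ac, H3K9ac was higher at 217 and lower at 1 of 621, with a median of 0.47. In bins of H3K27ac, the H3K9ac median ran from -0.71 where H3K27ac was lower by 2-fold to 0.69 where it was higher by 2-fold. H3K4me3 was lower at 40 and higher at 1 of 295 distal regions with lower H3K27ac, and higher at 81 and lower at 3 of 446 with higher H3K27ac, against 2.48% lower and 3.06% higher over all distal regions.

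Near starts, H3K9ac was lower at 95 and higher at 0 of 309 regions with lower H3K27ac (median -0.44), and higher at 39 and lower at 0 of 144 with higher H3K27ac (median 0.30). The background was 3.00% lower and 0.571% higher, with a median of -0.24 over all near-start regions. H3K4me3 was higher at 39 of 143 near-start regions with higher H3K27ac (background 0.537%) and lower at 14 of 304 with lower H3K27ac (background 0.298%). Its median was 0.31 at starts with higher H3K27ac and 0.01 at starts with lower H3K27ac.

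H3K4me1, the mark of enhancers, had medians close together over distal regions of both directions. Its median was -0.15 at distal regions with lower H3K27ac and -0.09 at those with higher H3K27ac, beside -0.14 over all distal regions, and it was -0.31 where H3K27ac was lower by 2-fold. At distal regions with lower H3K27ac it was lower by 1.5-fold at 109 (14.1%) and higher at 61 (7.89%) of 773, and at those with higher H3K27ac lower at 28 (2.90%) and higher at 43 (4.45%) of 967, against 5.24% lower and 3.74% higher of all. Near starts with lower H3K27ac it was higher at 49 (20.9%) and lower at 8 of 234, against 9.44% higher and 4.27% lower over all near-start regions. H3K27me3 could be read at few regions. At near-start regions with higher H3K27ac it was below 0 at 28 of 29 (median -0.58) and lower by 1.5-fold at 13, against 14.3% of the 237 near-start regions where it could be read, of which 73.4% were below 0. At those with lower H3K27ac it was below 0 at 12 of 27 and higher by 1.5-fold at 3, against 2.11% of all.

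**Figure D5:**
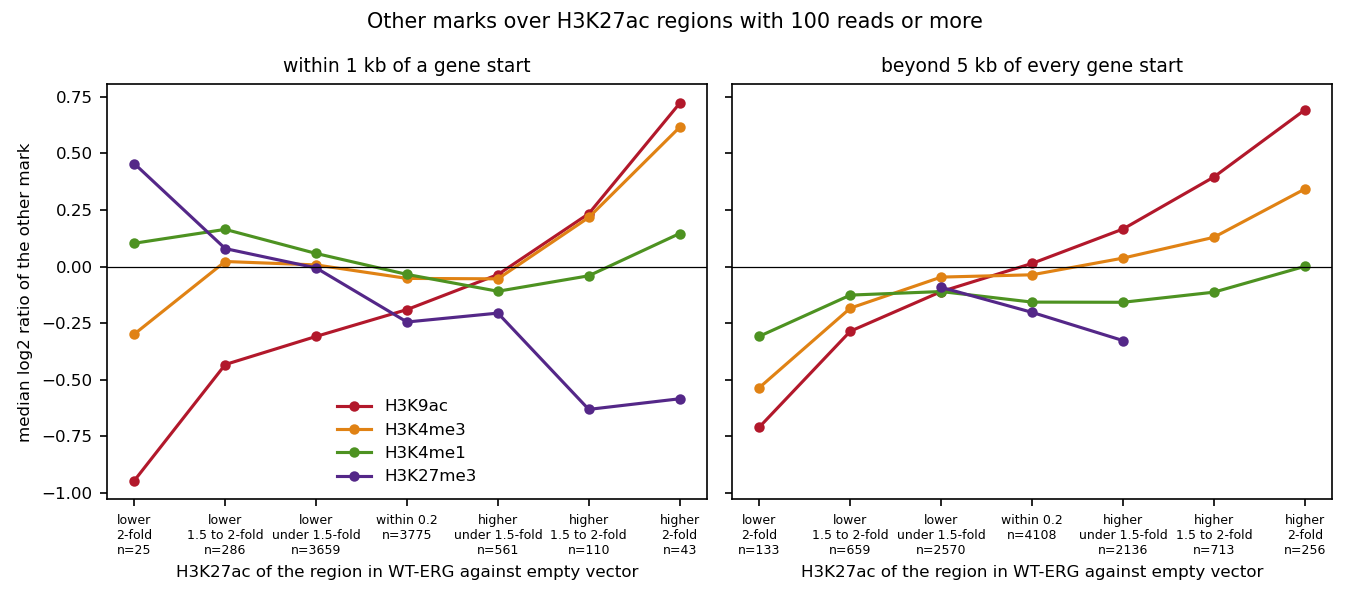
Median log2 ratio, WT-ERG over empty vector, of 4 other marks (y axis) in bins of H3K27ac regions ordered by their own ratio (x axis, n regions), near starts (left) and at distal regions (right), over regions that overlap a region of the mark and for bins with 10 such regions or more. H3K9ac rises through the bins, from -0.95 to 0.72 near starts and from -0.71 to 0.69 at distal regions. H3K27me3 near starts has 0.45 in the lowest and -0.58 in the highest bin, each over 13 regions and without a read minimum. With 50 reads or more its median was 0.03 over 27 near-start regions with lower H3K27ac and -0.58 over 29 with higher H3K27ac.

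ETS letters were common in all classes. AGGAAG, the form printed in capitals above, was found on either strand of 45.5% of the windows of distal regions with 100 reads or more. It was in 42.9% of lower and 47.9% of higher distal regions, and in 36.8% and 50.4% of those past 2-fold. Near starts it was in 31.2% of all, 24.8% of lower and 39.9% of higher windows. CCGGAAG, the form typical of promoters, went the other way near starts, in 12.4% of all, 9.65% of lower and 3.27% of higher windows. The PU.1 form GAGGAAG, which contains AGGAAG, was in 16.2% of lower and 17.0% of higher distal windows.

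The RUNX form TGTGGT was in 24.6% of lower and 27.5% of higher distal windows, beside 25.3% of all, and in 20.3% and 33.2% of those past 2-fold. Near starts it was in 9.97% of lower and 17.0% of higher windows, beside 11.4% of all, and the TAL1 form CAGATG in 9% and 16.3%, beside 10.9%. Past 2-fold, with 25 lower and 43 higher near-start windows, these differences were not seen. There TGTGGT was in 20% of lower and 20.9% of higher windows, and CAGATG in 12% and 9.30%. The C/EBP form TTGCNNAA of granulocyte factors was in 14.4% of lower and 11.0% of higher distal windows. The GATA form AGATAA was in 11.5% of lower and 9.70% of higher distal windows. The AP-1 form TGANTCA was in 9.60% and 10.8% of them, and CAGATG in 21.5% and 22.7%. The lower distal windows had a median GC content of 48.7% and the higher ones 54.7%, so the shares were also taken within the lower and the upper part by GC content. Among distal regions AGGAAG was in 43.8% of lower and 43.8% of higher windows in the lower GC part, and in 40.2% and 48.9% in the upper GC part. The direction of the GATA form turned round within both parts, with 13.3% of lower and 19.8% of higher distal windows in the lower GC part and 6.03% and 7.21% in the upper one. That of C/EBP turned round in the lower GC part (15.5% and 17.7%) and not in the upper one (11.1% and 9.40%), and RUNX was more frequent in higher windows in both (25.5% and 32.8%, 22.1% and 26.1%). Among near-start regions AGGAAG was in 29.9% of lower and 64.3% of higher windows in the lower GC part, of which there were 144 and 42. In the upper GC part AGGAAG was in 20.4% of lower and 30.6% of higher near-start windows. GC content still differed inside these parts. The median near starts was 49.8% in lower and 55.2% in higher windows of the lower part, and 73.7% and 65.0% in the upper part. The near-start shares were thus not compared at equal GC content.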

How the data were processed

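Chromatin immunoprecipitation with sequencing was done by the authors on 3 ER-Hoxb8 lines for 5 marks, with 1 library per line and mark, so n = 1 in each group. Cells were fixed with formaldehyde, and the authors trimmed reads with Cutadapt, dropped short reads, kept uniquely mapping reads (bowtie, mm10) and merged the MACS2 peaks of all lines into regions. The deposited table gives per region and line the count of reads, the signal as normalized reads and a call of 0 or 1. The normalized reads equal the counts times 1 factor per library (1.03 for WT-ERG, 1.15 for the empty vector, 0.957 for P199L-ERG), whose origin and the treatment of duplicate reads are not given in the sources used here. Reads are not independent molecules, so intervals cover counting error only.

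Each region was classed by the distances in the deposited annotation. Log2 ratios were taken on normalized reads plus 2.18, which is 10% of the median, and called at 1.5-fold. Named regions are the 8 largest ratios per class and direction with 100 reads or more in the larger library, and named genes are the 8 largest distal sums each way (3 regions and 500 reads or more), the 5 largest near-start sums each way (300 reads or more), the 2 largest changes each way per list and a fixed set. Runs of regions and their genes were chosen after their values were seen. No test was run. Other marks were read from the regions of each mark that overlap by 1 base or more, and counts of changed regions were made where the mark had 50 reads or more in the larger library. Alternatives were total-read scaling, a pseudocount 5 times larger, a 2-fold threshold, a read minimum, distances to starts of the GENCODE M21 annotation and centring within 20 groups of GC content. The GC groups were formed over regions of all classes together. Windows of 300 bases were read from the mm10 genome, whose 21 chromosomes matched the table. The ratio calculation was tested on simulated data. The regions and gene lists were chosen with earlier results of these data known. The IgG control was not analysed here, and some marker genes are not reported here. Scripts used Python 3.11.15, numpy 2.4.6, pandas 2.3.3, scipy 1.17.1 and matplotlib 3.10.9.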

Additional observations from a re-analysis of the deposited data

How the results depend on the processing

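Near starts, the 1074 regions lower by 1.5-fold became 639 with the larger pseudocount, 302 at 2-fold, 311 with 100 reads or more, 1689 with distances from the starts of the reference annotation and 1753 after GC centring. The 840 higher ones became 480, 318, 153 and 1556 under the first 4 of these. At distal regions, the 14675 lower ones became 7491, 5777 and 792, and the 16015 higher ones 7866, 6367 and 969, with the larger pseudocount, at 2-fold and with 100 reads or more. With 100 reads or more, near-start regions had 120 lower under total-read scaling, 1039 lower after GC centring and 332 higher with distances from any transcript start. Distal regions of that depth had 500 lower under total-read scaling, and 505 lower and 605 higher with distances from transcript starts. These alternatives with 100 reads or more were chosen after seeing the data. The near-start median of -0.16 became -0.050 under total-read scaling, -0.15 with the larger pseudocount, -0.18 with 100 reads or more, -0.14 with reference starts and -0.25 after GC centring. The distal median of 0.01 became 0.11, 0.0079 and -0.021 under the first 3 of these. The causes were not tested. All 32 named regions stayed past 1.5-fold under total-read scaling, the larger pseudocount and GC centring. Of 36 gene sums past 1.5-fold, 3 fell below it under total-read scaling, 2 under GC centring and 0 with the larger pseudocount. No paired analysis was possible because each line had 1 library per mark. Regions with few reads, which are most distal ones, are limited by depth.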
